A study of Mus musculus with 4 samples.

Results

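The p21-high beta cells of Atf4 mutant islets were 279 of the 832 beta cell barcodes read from 2 mutant islet pools, and of 11114 barcodes in all 4 pools. A barcode is the label that the RNA molecules of a single droplet share, and a UMI is the tag by which a single captured molecule is counted. A barcode was taken as a beta cell when it held more than 8000 UMIs, less than 20% of them from genes named mt-, at least 15% from Ins1 and Ins2 together, and under 0.5% each from Gcg, Sst and Ppy. It was called p21-high when Cdkn1a, the gene of the cell cycle inhibitor p21, reached at least 500 CPM, that is UMIs per 1000000 UMIs of the barcode. Beta barcodes of the same pool under 150 CPM were the p21-low class, and the rest were called between. The values of Cdkn1a, Ins1, Ins2, Gcg, Sst, Ppy and the mt- share were what the barcodes were chosen by, and they are given as a description, with no test.

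Islets came from 2-month-old, untreated mice. The mutants carried floxed Atf4 alleles and Ins1Cre (written Atf4F/F; Ins1Cre, and once Atf4F/f; Ins1Cre, in the labels), and the controls carried the floxed alleles (Atf4F/F) with no Cre named, so that the Cre was present in the mutants and not in the controls. Ins1Cre places the recombinase under the Ins1 gene, which is active in beta cells. Each pool joined 2 males and 2 females by the design text and 3 to 4 mice by the extraction protocol. No p-value therefore rests on the spread between mice. Against controls, p-values rest on the spread between 2 pools a group. Between classes of the mutants, they rest on how far the class differences vary between the 2 pools. Both kinds of p-value lean more on a spread shared across genes than on the gene's own spread. In the class fit, 2 residual degrees of freedom stood beside a prior of 22.2 from all genes. A gene could therefore be called although its pools disagreed. All 4 pools were given 10% human K562 cells, and tdT+ and tdT- cells went into the same library. The pools are called mutant 1, mutant 2, control 1 and control 2, as numbered in the labels.

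Atf4 is the transcription factor that carries out the integrated stress response, in which amino acid synthesis, amino acid transport and tRNA charging genes are switched on. p21 binds cyclin-dependent kinases and holds cells out of the cell cycle, and its gene is among the best known targets of the tumour suppressor p53, a transcription factor whose activity is set mainly by the stability of its protein rather than by its mRNA. Other p53 targets arrest growth, restrain p53 itself, prepare cells for apoptosis or serve DNA repair and metabolism. Adult beta cells divide rarely, and p21 is known in them from ageing and from responses to DNA damage.

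The pools gave between 2352 and 3272 barcodes and between 13706563 and 17655893 UMIs. Beta barcodes numbered 385 in mutant 1, 447 in mutant 2, 504 in control 1 and 510 in control 2. Between 41 and 82 barcode sequences were shared by any pair of pools over all barcodes and between 0 and 5 over beta barcodes, and 20 of the 279 p21-high barcodes had a sequence that also occurred in another pool. The summed UMIs behind the p21-high class were 3520375 in mutant 1 and 2002053 in mutant 2, against 1430391 and 3996853 for the p21-low class.

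Mutant 1 held 176 p21-high barcodes among its 385 beta barcodes, a share of 45.7% (exact Clopper-Pearson 95% interval 40.7 to 50.8). Mutant 2 held 103 of 447, or 23.0% (19.2 to 27.2). Control 1 held 0 of 504, which allows a share of up to 0.595% by the limit of 3 counts, and control 2 held 3 of 510, or 0.588% (0.122 to 1.71). The intervals cover counting error only. The median Cdkn1a level of a beta barcode was 478 CPM in mutant 1, 110 in mutant 2 and 0 in both controls. The shares of the mutant pools thus differed by more than their counting error, and both stood far above the controls, with no test since Cdkn1a chose the members.

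**Figure D1:**
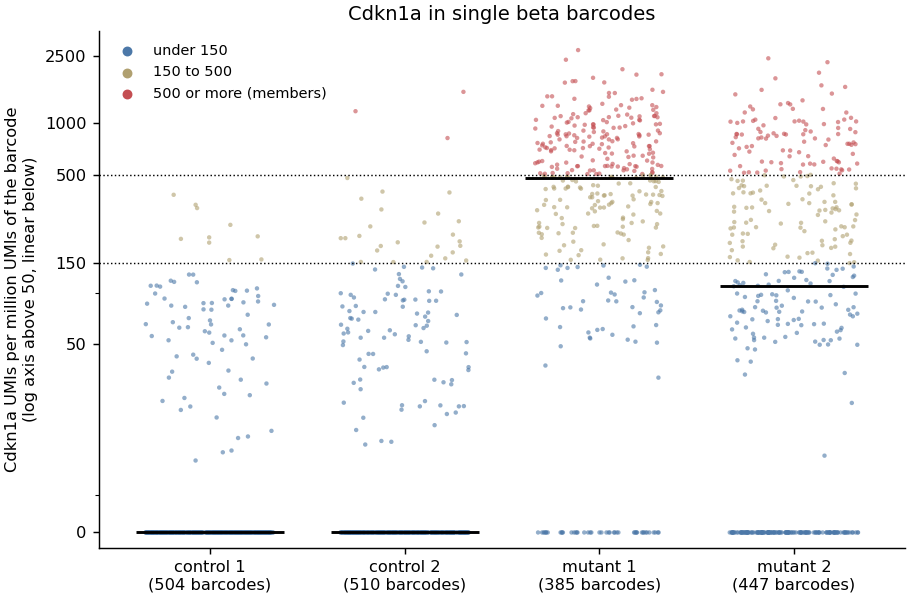
Cdkn1a CPM (UMIs per 1000000 UMIs, vertical axis, logarithmic above 50 and linear below) in each beta barcode of the 4 pools, coloured by class, with black lines at the pool medians and dotted lines at 150 and 500. The mutant pools spread from 0 to maxima of 2710 and 2423 with no gap at either limit, while the medians of both controls are 0.

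Cdkn1a formed a continuous spread in the mutants. The lowest p21-high barcode stood at 503 CPM (9 UMIs) in mutant 1 and 506 (6 UMIs) in mutant 2, and the highest beta barcodes under the limit stood at 497 (6 UMIs) and 498 (9 UMIs). Between 400 and 600 CPM there were 75 barcodes in mutant 1 and 45 in mutant 2, so the limit cut through a range and did not separate a group. The p21-high barcodes had a median of 16 Cdkn1a UMIs (5 to 64) in mutant 1 and 15 (5 to 54) in mutant 2, and medians of 839 and 845 CPM. No Cdkn1a UMI was found in 11.4% of beta barcodes of mutant 1 and 33.6% of mutant 2, against 83.3% and 76.5% in the controls.

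As droplets, the p21-high barcodes were deeper than the p21-low ones. The median was 17820 against 15590 UMIs in mutant 1 and 18130 against 14290 in mutant 2, and the median number of genes was 4433 against 4019 and 4418 against 3712. When every barcode was thinned at random to 8000 UMIs the medians were 2780 against 2696 genes in mutant 1 and 2732 against 2588 in mutant 2. Insulin UMIs were a smaller part of them, with a median of 28.8% against 31.3% in mutant 1 and 30.8% against 35.3% in mutant 2, beside 35.8% and 34.9% in the controls. The mt- share had medians of 2.55% against 2.91% in mutant 1 and 2.46% against 2.08% in mutant 2, so its direction differed between the pools.

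The label of beta cell came from the rule for the p21-high barcodes, so their hormone levels are no test of it. Ins2 was their most abundant beta cell marker of the rule, with 158700 CPM in mutant 1 and 174400 in mutant 2, beside 203600 and 188600 in the controls. In the summed barcodes of a class CPM are given after TMM scaling, edgeR's correction for differences in composition. Ins1 stood at 91290 and 102900 CPM in the p21-high classes and at 145100 and 141400 in the controls. The possible ceiling on counts applies to these insulin levels as well. The other hormones were low in every class by the rule, with Gcg at 248.5 and 303 CPM in the p21-high sums and 268 and 354 in the p21-low sums. Genes of mature beta cells that played no part in the rule were present: the glucose transporter Slc2a2 had 820 and 865 CPM in the p21-high sums and 771 and 783 in the p21-low sums, and the hormone Ucn3 had 890 and 1204 against 1010 and 1061. Mafa was counted in so few UMIs that it stood at 0 in both p21-high sums and in both controls.

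Atf4 RNA itself was scarce in the p21-high barcodes of both pools, but the pools differed in what the p21-low class was. Atf4 stood at 0.797 and 17.6 CPM in the p21-high sums of mutants 1 and 2, at 0 and 193.5 in the p21-low sums, and at 387 and 398 in the controls. No Atf4 UMI was found in 173 of 176 p21-high barcodes of mutant 1 (98.3%) and 91 of 103 of mutant 2 (88.3%). Among p21-low barcodes it was missing in 92 of 92 in mutant 1 but in 68 barcodes (27.3%) in mutant 2. In the controls 13 of 504 and 16 of 510 beta barcodes had no Atf4 UMI. The p21-low class of mutant 2 was therefore mostly made of barcodes that still held Atf4 RNA, and that of mutant 1 was not.

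Within mutant 2 the share of p21-high barcodes followed the Atf4 count of the barcode. It was 40.1% of the 227 barcodes with no Atf4 UMI (33.7 to 46.8), 10.7% of 84 with 1 to 2 UMIs (5.02 to 19.4) and 2.21% of 136 with 3 or more (0.457 to 6.31). In mutant 1, where 376 of 385 beta barcodes had no Atf4 UMI, it was 46.0% of those (40.9 to 51.2). Among barcodes without Atf4 UMIs the intervals of the mutant pools overlapped. The median depth was 15160 UMIs in mutant 2 barcodes with no Atf4 UMI, 12240 with 1 to 2 and 18020 with 3 or more, so the class with the fewest p21-high barcodes was also the deepest.

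**Figure D2:**
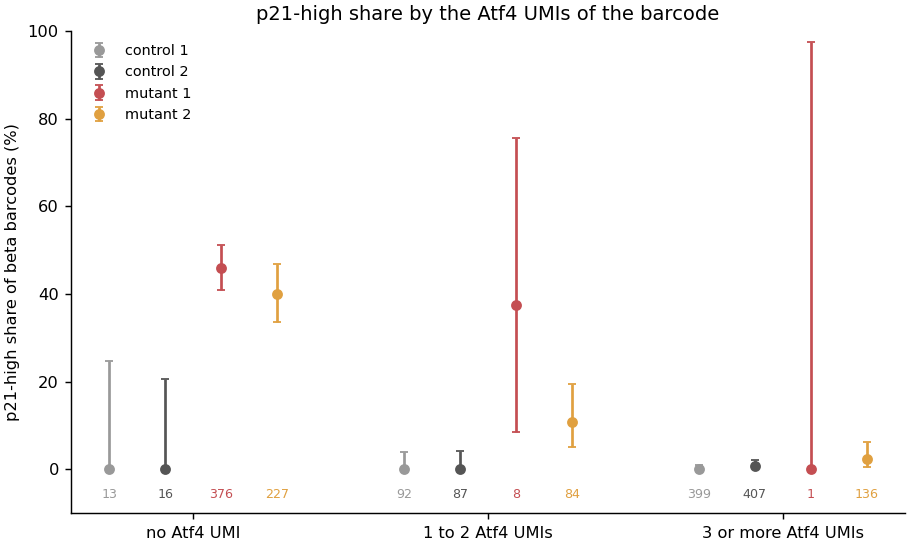
Share of p21-high barcodes (vertical axis, percent of beta barcodes) by the number of Atf4 UMIs in the barcode (horizontal axis), with exact 95% intervals and the number of beta barcodes under each point. In mutant 2 the share is 40.1% with no Atf4 UMI and 2.21% with 3 or more, and mutant 1 with no Atf4 UMI is at 46.0%.

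Female and male beta barcodes were told apart by Xist and by Y-linked genes. In mutant 1 the p21-high share was 41.2% of 136 barcodes with Xist and 49.6% of 133 with Y-linked UMIs. In mutant 2 it was 41.2% of 102 barcodes with Xist but 12.1% of 231 with Y-linked UMIs. Of those Y-linked barcodes of mutant 2, 114 held 3 or more Atf4 UMIs and gave a share of 0.877%, while the 64 with none gave 34.4% (22.95 to 47.3), beside 41.5% (31.4 to 52.1) of the 94 Xist barcodes with no Atf4 UMI. The barcodes of mutant 2 that kept Atf4 were therefore mostly male, and its p21-low class held 165 Y-linked and 31 Xist barcodes against 28 and 42 in the p21-high class. Whether the difference between p21-high and p21-low barcodes depends on sex was tested in edgeR by an interaction term. Each combination of pool and sex was a block. The test called 0 of 7489 genes, with 355 at an unadjusted p under 0.05. In barcodes with no Atf4 UMI it called 0 of 6411, with 318 at an unadjusted p under 0.05. No other tool was run on either.

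The comparison of p21-high with p21-low barcodes inside each pool asks what else distinguishes these cells. UMIs were summed per pool and class, and the 6 sums were fitted in edgeR by quasi-likelihood with the pool as a block. Of 10711 genes tested, 67 were called higher in p21-high barcodes (0.626%) and 42 lower (0.392%), 1.02% in either direction, at an adjusted p under 0.05. All 67 higher genes and 38 of the 42 lower ones differed in the same direction in both pools, as did 5604 of the 10711 genes tested. The calls were made from these same pools and favour genes that agree between them, so this agreement is no separate support. p53 targets were frequent among the genes that rose: of 54 listed genes other than Cdkn1a (Trp53 itself among them), 44 passed the filter on low counts, and 17 were called higher and 0 lower. DESeq2 called 6 and 0 and limma-voom 17 and 0, and 28 and 0 reached an unadjusted p under 0.05. Their median log2 difference was 0.72, beside -0.01 over all genes tested. With library totals in place of TMM, 166 genes were called higher and 31 lower, and the median of all genes moved by more than 0.1, from -0.01 to 0.10.

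Ccng1 (chr11:40748552-40755311, minus strand, GENCODE on GRCm38), which encodes the p53-induced cyclin G1, was the most abundant of the called p53 targets. It stood at 435 CPM in p21-high and 200 in p21-low barcodes of mutant 1 and at 407 and 110 in mutant 2, with 326 and 305 in the between class and 50.5 and 55.0 in the controls. Every p21-high sum lay above every other sum, and the controls were lowest. The log2 difference between p21-high and p21-low was 1.53 (SE 0.121, edgeR adjusted p = 4.41e-08).

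Phlda3 (chr1:135766119-135769136, plus strand), a p53-induced inhibitor of Akt signalling, had a larger difference at a lower level. It stood at 52.6 CPM against 17.1 in mutant 1 and 66.3 against 7.76 in mutant 2, with 39.5 and 37.9 in the between class and 1.97 and 1.81 in the controls. The order of the classes was the same in both pools, and the log2 difference was 2.48 (SE 0.234, edgeR adjusted p = 3.95e-07). Both of these genes were chosen as markers of the group with earlier results of these data known.

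The remaining called members of the growth arrest and feedback list were Zmat3, Trp53inp1, Mdm2, Btg2 and Sesn2, so that 6 of 14 tested rose and 0 fell. Zmat3, an RNA-binding zinc finger protein, stood at 135 CPM against 59.0 in mutant 1 and 144 against 52.3 in mutant 2, and at 35.1 and 34.5 in the controls. Its log2 difference was 1.35 (SE 0.12, edgeR adjusted p = 1.37e-07). Trp53inp1, a nuclear protein that acts on p53, stood at 105 against 49.7 in mutant 1 and at 149 against 62.1 in mutant 2, beside 50.2 and 33.3 in the controls. The p21-low sums of these genes lay nearer to the controls than to the p21-high sums. Mdm2, the ubiquitin ligase that degrades p53, rose less, with 96.1 against 62.5 CPM in mutant 1 and 95.1 against 53.5 in mutant 2, and controls at 39.7 and 49.0 (log2 difference 0.73, SE 0.124, edgeR adjusted p = 0.00157). Btg2 and Sesn2 were higher in p21-high than in p21-low barcodes of both pools, but the p21-high sums of Btg2 (219 and 254 CPM) overlapped the controls (229 and 283), the higher of which lay above both.

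On the list of p53 targets named for apoptosis 4 of 10 tested members rose: Phlda3, Bax, Dcxr and Aen. Membership of the list does not make each gene, Dcxr among them, an apoptosis gene. Bax, which opens the outer mitochondrial membrane in apoptosis, stood at 147 CPM against 75.3 in mutant 1 and 139 against 58.4 in mutant 2, with controls at 56.9 and 61.6. The p21-low sum of mutant 2 lay within the range of the controls, and the log2 difference was 1.15 (SE 0.123, edgeR adjusted p = 2.26e-06). All 10 tested members of the list had a positive difference, with a median of 1.08.

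Among targets in repair, metabolism and other roles 7 of 20 rose: Rps27l, Ak1, Trp53cor1, Ano3, Eda2r, Ephx1 and Slc19a2. Rps27l, a ribosomal protein paralogue induced by p53, stood at 198 CPM against 124 in mutant 1 and 139 against 70.9 in mutant 2, with controls at 60.3 and 64.2. Reads of Rps27l could be shared with its near relative Rps27, so its level is uncertain. Eda2r, a death-domain receptor of the TNF receptor family, had few UMIs but a clear order, with 11.4 and 11.7 CPM in p21-high sums, 2.84 and 2.07 in p21-low sums and 0.524 and 0.226 in controls. Ak1, a muscle and brain form of adenylate kinase, differed from these: its p21-low sums (31.3 and 28.7 CPM) lay below both controls (39.7 and 39.6), and its p21-high sums (63.7 and 68.7) above them.

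Trp53cor1, the long noncoding RNA also called lincRNA-p21, lies beside Cdkn1a on the other strand of chromosome 17. By GENCODE on GRCm38 it spans chr17:29057430-29079179 on the minus strand, and Cdkn1a spans chr17:29090976-29100727 on the plus strand. It stood at 30.3 CPM against 7.11 in mutant 1 and 33.1 against 12.9 in mutant 2, beside 9.04 and 11.2 in the controls, and the log2 difference was 1.52 (SE 0.245, edgeR adjusted p = 0.000934). The gene models do not overlap.

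Trp53, the gene of p53 itself, was not called. It stood at 19.1 CPM against 20.6 in mutant 1 and 20.96 against 21.2 in mutant 2, with controls at 24.1 and 26.5, and the log2 difference was -0.02 (SE 0.225, edgeR adjusted p = 0.985).

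**Figure D3:**
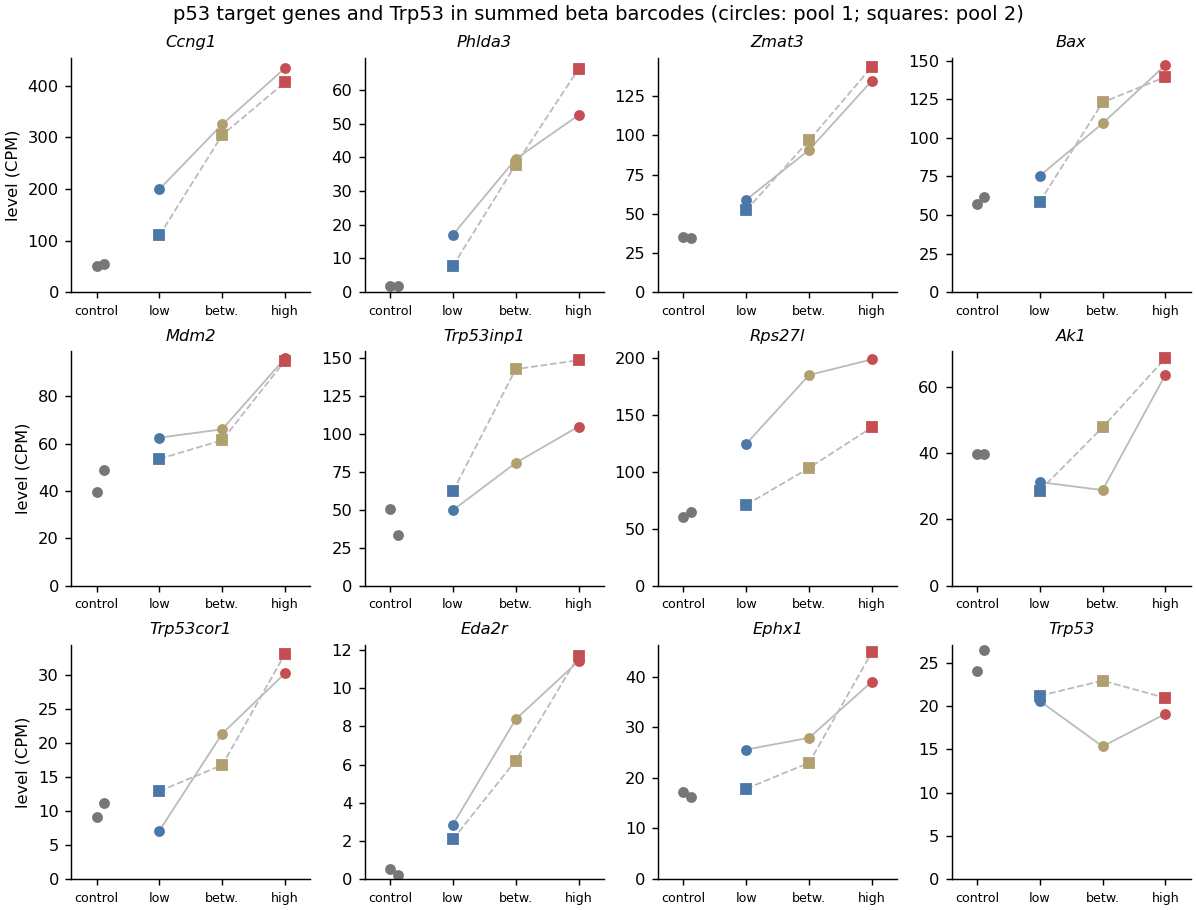
Levels (CPM, each panel with its own axis from 0) of 11 p53 targets and of Trp53 in summed beta barcodes, with controls in grey and p21-low, between and p21-high classes of mutant 1 (circles) and mutant 2 (squares) joined by lines. Within each pool the p21-high sum is the highest of the 3 classes in each target panel, and Trp53 lies between 15.3 and 26.6 CPM in all 8 sums.

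Windows of 250 bases before to 50 after the gene starts in RefSeq (GRCm38.p6) were searched for the p53 consensus, read as a pair of 10-base half-sites at most 1 base apart with at most 3 mismatches and each half-site's core C and G in place. The consensus reads the same on both strands, so a single pass covers both. A match was found in 5 of the 54 genes called higher that the table holds (9.26%), in 0 of 36 called lower, in 323 of 8271 genes tested (3.91%) and in 928 of 32851 windows of all genes (2.82%). The 5 were Ccng1, Bax, Rps27l, Aen and Dcxr, and 14 of 41 listed p53 targets other than Cdkn1a had a match (34.1%). Shown are 20 bases on either side of the match for Cdkn1a, which defines the group, and for 3 called targets, 5′ to 3′ on the gene's strand with the match in capitals.
Cdkn1a: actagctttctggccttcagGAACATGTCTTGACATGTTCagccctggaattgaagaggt
Ccng1: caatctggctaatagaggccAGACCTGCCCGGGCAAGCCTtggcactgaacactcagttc
Rps27l: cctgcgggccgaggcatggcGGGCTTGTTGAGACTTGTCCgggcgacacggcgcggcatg
Bax: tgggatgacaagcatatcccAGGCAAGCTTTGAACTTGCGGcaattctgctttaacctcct
The Cdkn1a stretch is chr17:29090908-29090967 on the plus strand, and its match starts 51 bases before the RefSeq start, with 1 mismatch, and lies upstream of the first of 5 annotated starts. The Ccng1 stretch is chr11:40755442-40755501 on the minus strand, with the match 195 bases before the start and 1 mismatch. The Rps27l stretch is chr9:66946276-66946335 on the plus strand, with 1 mismatch, and GENCODE places the match in an intron, since Rps27l has 6 annotated starts. The Bax stretch is chr7:45467059-45467119 on the minus strand, with the match 201 bases before the start, 2 mismatches and a spacer of 1 base. A match is a description of letters and not of binding. The Phlda3 window held no match, and Zmat3 and Trp53inp1 were named only.

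Some p53 targets rose at every step of Cdkn1a and others did not. In bins of no Cdkn1a UMI, above 0 to 150, 150 to 500, 500 to 1000 and 1000 or more CPM, Ccng1 stood at 142, 239, 333, 389 and 623 CPM in mutant 1, without TMM scaling. In mutant 2 the same bins gave 68.0, 150, 305, 388 and 482. Bax rose over the bins from 55.9 to 191 CPM in mutant 1 and from 53.9 to 166 in mutant 2. Of the 9 called targets followed over the bins, Ccng1, Zmat3, Bax and Rps27l rose at each step in both pools when all barcodes were used. Phlda3, Trp53inp1, Mdm2, Ak1 and Trp53cor1 were higher in the top bin than in barcodes with no Cdkn1a UMI, but each broke the order in at least 1 pool. Phlda3 stood at 2.35, 13.4, 37.8, 74.3 and 53.6 CPM in mutant 2, Mdm2 at 52.7, 68.3, 67.5, 105 and 98.8 in mutant 1, and Ak1 at 38.4, 24.9, 29.5, 59.8 and 85.7 in mutant 1. Trp53, whose product acts on these genes, showed no steady order, with 16.0, 23.6, 15.7, 21.04 and 19.2 CPM in mutant 1 and 21.1, 19.8, 22.95, 23.1 and 17.9 in mutant 2. The top bin of mutant 2 held 32 barcodes. Atf4 RNA differed over the bins of mutant 2, at 203 CPM with no Cdkn1a UMI and 3.25 in the top bin. In mutant 2 barcodes with no Atf4 UMI, Ccng1 stood at 158, 256, 349, 409 and 475 CPM. Rps27l broke the order there, at 68.9, 115, 107, 139 and 173. Ccng1, Zmat3 and Bax rose at each step in both pools in barcodes with no Atf4 UMI as well.

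The UMIs of the 54 listed targets were also added up in single barcodes thinned to 8000 UMIs. The median sum was 18 UMIs in p21-high barcodes of mutant 1 (quartiles 15 and 24) and 18 in those of mutant 2 (15 and 23.5). In p21-low barcodes it was 11 (9 and 13.2) and 9 (6 and 12), and in the controls 8 and 9. Over beta barcodes of a pool, Spearman's rho of this sum with the Cdkn1a UMIs at the same depth was 0.546 in mutant 1 (n = 385), 0.635 in mutant 2 (n = 447), 0.105 in control 1 (n = 504) and 0.102 in control 2 (n = 510). The barcodes of a pool share a library, so these are descriptions. Before thinning, 83.3% of beta barcodes in control 1 and 76.5% in control 2 had no Cdkn1a UMI, so most of their ranks were tied. The value of mutant 2 was taken over barcodes with and without Atf4 UMIs together.

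**Figure D4:**
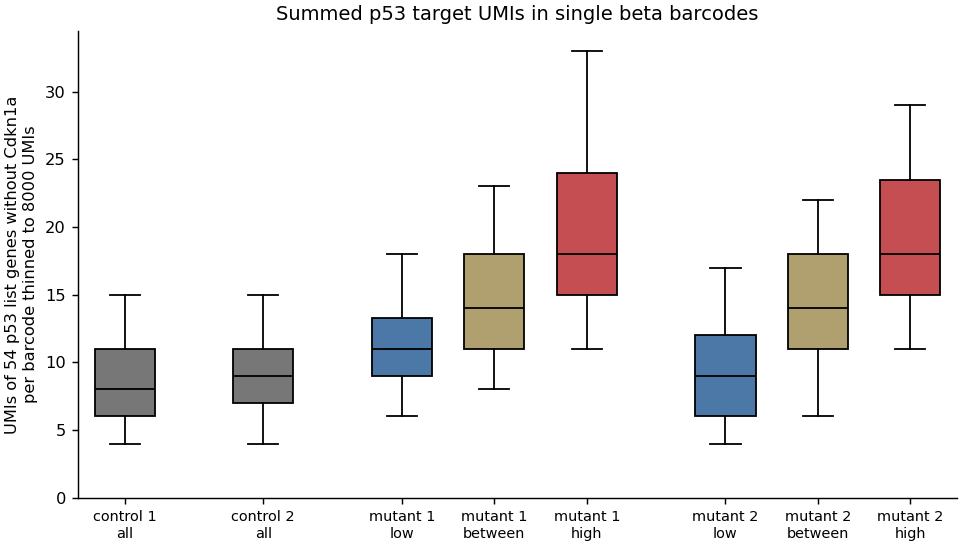
UMIs of 54 listed p53 targets without Cdkn1a, added up per beta barcode after thinning to 8000 UMIs (vertical axis), by pool and class; boxes span the quartiles with the median as a line, and whiskers span the 5th to the 95th percentile. The medians are 18 in both p21-high classes, 14 in both between classes, 11 and 9 in the p21-low classes and 8 and 9 in the controls.

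In single pools, 34 of 44 listed targets differed upwards in mutant 1 with a median of 0.71 (log2), and 36 of 44 in mutant 2 with a median of 0.74. Of the 17 called, 13 had larger differences in mutant 2, where the p21-low class held Atf4 RNA. Ccng1 differed by 1.14 in mutant 1 and 1.88 in mutant 2, and Phlda3 by 1.63 and 3.08. Zmat3 (1.21 and 1.45), Bax (0.98 and 1.25) and Mdm2 (0.63 and 0.82) were nearer to each other. Trp53cor1 went the other way, with 2.10 in mutant 1 and 1.35 in mutant 2.

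**Figure D5:**
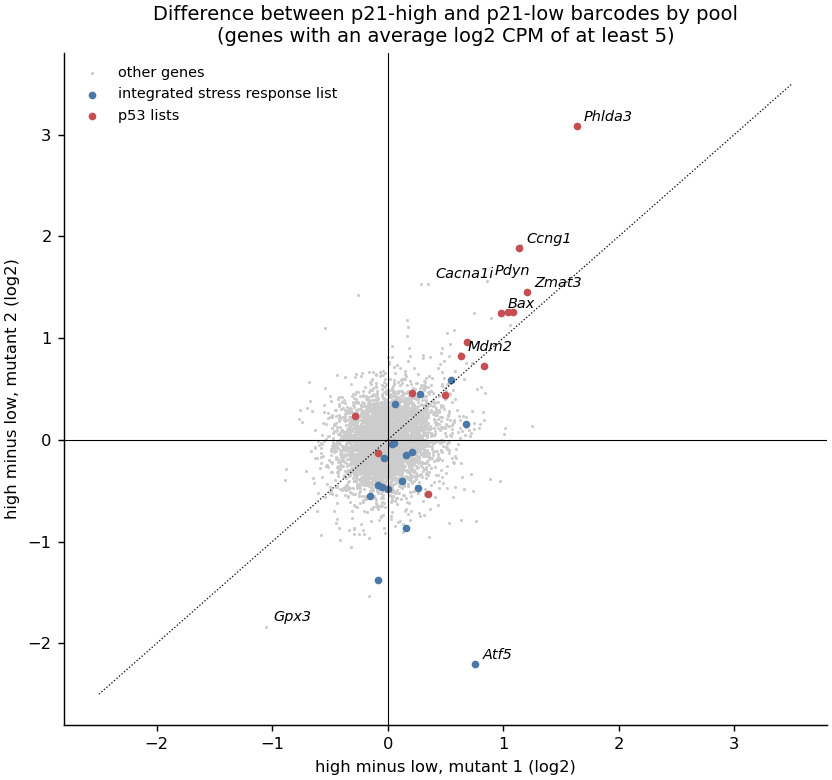
Log2 difference of p21-high and p21-low barcodes in mutant 1 (horizontal axis) and mutant 2 (vertical axis) for genes whose log2 CPM averaged 5 or more, with the p53 lists in red and the integrated stress response list in blue. Ccng1, Phlda3, Zmat3 and Bax are high in both pools, while Atf5 is at 0.76 in mutant 1 and -2.21 in mutant 2.

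The same comparison was therefore run on barcodes with no Atf4 UMI only, in which p21-low barcodes numbered 92 in mutant 1 and 68 in mutant 2 and p21-high barcodes 173 and 91. Of 10039 genes tested 37 were higher (0.369%) and 11 lower (0.11%), 0.478% in either direction. Of the 67 genes called higher with all barcodes 32 were called again and all 67 kept their sign, and of 38 testable lower genes 7 were called again and 38 kept their sign. These barcodes are part of those in the first fit, and nearly all of them in mutant 1, so kept signs are no independent check. Among listed p53 targets 10 of 42 tested rose and 0 fell, with a median log2 difference of 0.65: Ccng1, Zmat3, Trp53inp1, Btg2, Mdm2, Phlda3, Bax, Trp53cor1, Ak1 and Rps27l. Ccng1 differed by 1.04 (SE 0.0802) and Phlda3 by 1.80 (SE 0.218). Per pool, Ccng1 differed by 1.14 and 0.90 and Phlda3 by 1.61 and 2.08 in mutants 1 and 2. Dcxr, Aen, Ano3, Eda2r, Ephx1, Slc19a2 and Sesn2 had positive differences without passing the test.

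The integrated stress response list looked different with and without that restriction. With all barcodes 2 of 33 tested members rose (Ddit4 and Sesn2) and 3 fell (Nupr1, Atf5 and Mthfd2), with a median of -0.21. Atf5, a transcription factor induced by Atf4, stood at 41.7 CPM in p21-high and 24.9 in p21-low barcodes of mutant 1 but at 80.9 and 372 in mutant 2, beside 565 and 626 in the controls. Mthfd2, an enzyme of mitochondrial one-carbon metabolism, stood at 11.4 in both classes of mutant 1 and at 14.6 against 47.3 in mutant 2. The calls of both genes thus rested on mutant 2, since mutant 1 alone gave log2 differences of 0.76 for Atf5 and 0.02 for Mthfd2. In barcodes with no Atf4 UMI 0 of 27 tested members were called by edgeR, an unadjusted p under 0.05 was reached by 2 upwards and 1 downwards, and the median was -0.01; no other tool was run on these barcodes. Cacna1i, a calcium channel gene at chr15:80287238-80398279, follows Atf4 (chr15:80255184-80257541) on the same strand (GENCODE, GRCm38). It stood at 104 against 82.4 CPM in mutant 1 and 88.2 against 30.3 in mutant 2 and at 1.05 and 1.47 in the controls. Its log2 difference was 0.93 with all barcodes and 0.17 (SE 0.129) in those with no Atf4 UMI, where it was not called.

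Other genes that rose in p21-high barcodes were not on the p53 lists. Pdyn, which encodes the opioid peptide precursor prodynorphin, stood at 216 CPM against 120 in mutant 1 and 314 against 106 in mutant 2, with controls at 40.8 and 79.9 (log2 difference 1.25, SE 0.123, edgeR adjusted p = 7.88e-07). The between classes of Pdyn, 246 and 245 CPM, were as high as or higher than the p21-high class of mutant 1. The noncoding RNAs 9030617O03Rik and 1700120G11Rik rose by 1.71 and 1.57 on the log2 scale. The former stood at 69.8 against 28.4 CPM in mutant 1 and 59.97 against 14.7 in mutant 2, and the latter at 70.4 against 32.0 and 65.8 against 17.3. Gria3, a glutamate receptor subunit (1.05), Samd12 (1.07) and Cmpk2, a mitochondrial nucleotide kinase (1.04), completed the 12 largest rises among genes whose log2 CPM averaged 5 or more.

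Less abundant genes gave larger differences, and these were picked out after their values had been seen. Ddit4l, a relative of the mTORC1 inhibitor Ddit4, stood at 24.4 against 8.53 CPM in mutant 1 and 21.9 against 1.81 in mutant 2, with controls at 0.655 and 0.678. Fam212b stood at 39.6 against 20.6 and 48.3 against 8.79, with controls at 1.18 and 3.39. Aaas, a nuclear pore protein gene, stood at 22.3 against 3.55 and 17.1 against 5.69, with controls at 5.90 and 9.49. For Ddit4l and Fam212b the p21-low sums were already above both controls, whereas for Aaas they were below both.

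The genes that fell were led by Gpx3, a secreted glutathione peroxidase, among those whose log2 CPM averaged 5 or more. It stood at 26.8 CPM against 56.1 in mutant 1 and 13.7 against 48.6 in mutant 2, with controls at 64.4 and 75.1 (log2 difference -1.42, SE 0.199, edgeR adjusted p = 0.000165). The metallothionein Mt2 fell as well, with 279 against 362 and 288 against 371 CPM and controls at 557 and 572. These were the 2 of 21 tested members of the metallothionein and antioxidant list that fell, and 0 rose. In barcodes with no Atf4 UMI Gpx3, Mt1 and Mt2 fell and 0 rose.

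The other 11 of the 12 largest falls were Nlgn1, Per3, Ror1, Fxyd6, Erc2, Rpl22l1, Tshz2, Trpm3, Kcnip4, Tcf4 and Kat2b, with log2 differences between -0.95 and -0.54. Trpm3, a cation channel, was the most abundant, at 298 against 335 CPM in mutant 1 and 342 against 666 in mutant 2, beside 337 and 255 in the controls. Its difference lay mostly in mutant 2 (-0.97, against -0.16 in mutant 1). In barcodes with no Atf4 UMI, Fxyd6 was called among these 11 genes (-0.59, SE 0.12).

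Of 30 beta cell identity genes tested, Pcsk1 rose and Nnat and Npy fell, where 1.02% of all genes were called. An unadjusted p under 0.05 was reached by 8 of the 30, 3 of them higher. Over all 10711 genes tested, 560 higher and 587 lower reached it. Pcsk1, the convertase that starts proinsulin processing, stood at 283 against 227 CPM in mutant 1 and 335 against 219 in mutant 2, with controls at 169 and 181. Nnat, an imprinted gene that serves signal peptidase in insulin secretion, stood at 20.2 against 48.3 and 18.5 against 45.0, and at 155 and 164 in the controls. Npy, a peptide of immature beta cells, stood at 4.25 against 9.95 and 11.2 against 28.4, beside 119 and 74.7 in the controls. In barcodes with no Atf4 UMI Iapp fell and Pcsk1 rose. The median of the list was -0.03 with TMM and 0.07 with library totals.

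Among granule and exocytosis genes 2 of 29 rose (Exoc4 and Scg2) and Cacna2d1 fell, where 0.626% of all genes rose and 0.392% fell. Exoc4, a subunit of the exocyst that tethers vesicles, stood at 375 against 261 CPM in mutant 1 and 433 against 225 in mutant 2, with controls at 151 and 135 (log2 difference 0.75, SE 0.0926, edgeR adjusted p = 2.69e-05). Scg2, a granin, stood at 6386 against 5802 and 6816 against 4343, and controls at 4084 and 4311. Cd81, a tetraspanin that is low in mature beta cells, rose from 144 to 197 CPM in mutant 1 and from 105 to 197 in mutant 2, and was the 1 of 4 tested genes of that list that passed.

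Of 20 immediate early genes tested inside the mutant pools 4 rose (Fos, Dusp1, Fosb and Btg2) and 0 fell, where 0.626% of all genes rose. Of the 20, 15 had a positive difference, DESeq2 called 1 and limma-voom 5, an unadjusted p under 0.05 was reached by 10 upwards and 0 downwards, and the median was 0.29. Fos stood at 633 against 460 CPM in mutant 1 and 800 against 544 in mutant 2. The controls, at 848 and 850, were above all of these values. Btg2 is on the p53 list as well.

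Of 12 cell cycle genes tested 0 were called by edgeR, where 1.02% of all genes were, DESeq2 called 0 and limma-voom 1, and an unadjusted p under 0.05 was reached by 1 upwards and 1 downwards. Ccnd2, the main D-type cyclin of beta cells, stood at 2127 against 1783 CPM in mutant 1 and 2044 against 1678 in mutant 2, and its log2 difference was 0.27 (SE 0.0705, edgeR adjusted p = 0.0703). In barcodes with no Atf4 UMI its log2 difference was again 0.27, and there it was called. Of the other cyclin-dependent kinase inhibitors 3 were tested and 0 called by edgeR, DESeq2 or limma-voom, with 0 at an unadjusted p under 0.05. Of the senescence secretome list 6 of 19 genes passed the filter and 0 were called by those tools, with 1 gene, lower, at an unadjusted p under 0.05.

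Of 24 chaperone and unfolded protein response genes 0 were called by edgeR, DESeq2 or limma-voom, and an unadjusted p under 0.05 was reached by 3 upwards and 0 downwards. Over all genes edgeR called 1.02%, so lists of this size would hold few or no calls at that share. Of 81 nuclear respiratory chain genes 0 were called by the same tools, with 5 higher and 5 lower. Of 14 interferon and antigen presentation genes 0 were called, with 1 higher and 0 lower. Of 79 cytosolic ribosomal protein genes Rps27l alone was called, and 1 higher and 12 lower reached an unadjusted p under 0.05. The median of the list was -0.09 with TMM and 0.02 with library totals, so its sign depended on the scaling.

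Markers of other cell types were measured in the same sums, since RNA of other cells can be carried into a droplet and a droplet can hold more than 1 cell. No doublet caller was run, and without the deepest 10% of barcodes the calls were 66 higher, 36 lower and 18 listed p53 genes higher. Summed acinar markers stood at 30.5 CPM in p21-high and 41.2 in p21-low barcodes of mutant 1 and at 73.1 and 40.6 in mutant 2. Endothelial markers stood at 90.3 against 32.0 and 21.9 against 55.6, and immune markers at 56.0 against 80.3 and 89.2 against 143.8. Delta markers without Sst stood at 19.9 against 37.0 and 27.3 against 56.4, and duct markers at 252 against 219 and 254.5 against 205. PP markers without Ppy stood at 147.9 against 121 and 159.9 against 299, and mesenchymal markers at 15.9 against 14.9 and 6.34 against 31.04. Immune and delta markers were thus lower and duct markers higher in the p21-high sums of both pools, and acinar, endothelial, PP and mesenchymal markers changed order between the pools. Single markers at 0 in both p21-high sums were Irx1 (alpha), Ghsr and Cck (delta), Ptgfr (PP), Prss1 (acinar), Cldn5 (endothelial) and Sox9 (duct), while other members of each of these lists were detected there. Summed alpha markers without Gcg stood at 2065 against 2119 and 1957 against 1786, and erythroid markers were between 0 and 5.85 CPM. Of the single markers, Gc and Spp1 rose and Rbp4 and Rgs5 fell. Spp1 stood at 52.3 against 11.4 CPM in mutant 1 and 20.96 against 13.4 in mutant 2, and Rbp4 at 13.0 against 29.1 and 21.4 against 44.7. The part of other cells in the results was not tested.

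Against control beta barcodes, the p21-high sums differed in more genes: of 12365 tested 120 were higher (0.970%) and 94 lower (0.76%), 1.73% in either direction, by edgeR on 4 sums with no block. With library totals the counts were 264 and 69. Of 50 tested p53 targets 22 rose and 0 fell, with a median of 0.74, beside -0.01 over all genes tested. Phlda3 differed by 4.94 (SE 0.228, edgeR adjusted p = 2.29e-05), Ccng1 by 2.98 (SE 0.130, adjusted p = 2.07e-05) and Eda2r by 4.89 (SE 0.445, adjusted p = 0.00128). Fas, Psrc1, Plk2, Tnfrsf10b, Pvt1, Zfp365 and Polk were called here and not against p21-low barcodes, and Btg2 and Sesn2 were not called here. Without mutant 1 the counts were 36 higher and 18 lower with 10 p53 targets, without mutant 2 they were 74, 46 and 13, without control 1 they were 72, 65 and 16, and without control 2 they were 84, 69 and 14; in each of these fits the lone sum is assumed to vary like the other group.

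The integrated stress response list fell in this comparison, with 15 of 35 tested members lower, 0 higher and a median of -0.93. Against the same controls the p21-low sums had a median of -0.53, with 0 of 35 members called by edgeR. An unadjusted p under 0.05 was reached there by 18 members downwards and 0 upwards. Lower values of this list were thus not particular to the p21-high sums. Asns, which makes asparagine, stood at 32.1 and 41.9 CPM in p21-high sums and 101 and 108 in controls (log2 difference -1.54, SE 0.159, edgeR adjusted p = 0.00255). Chac1 stood at 1.33 and 1.46 CPM against 26.7 and 35.1. Ribosomal proteins fell in 11 of 79 cases and rose in 1 (Rps27l), with a median of -0.39 (4 fell and 1 rose with library totals). In the p21-low sums their median against controls was -0.32, with 0 of 79 called by edgeR. There 43 were lower and 1 higher at an unadjusted p under 0.05. Of the genes that are low in mature beta cells 4 of 4 tested rose: Cd81, Aldh1a3, Oxtr and Serpina7. Aldh1a3, a retinaldehyde dehydrogenase known from dedifferentiated beta cells, had few UMIs, at 3.98 and 6.34 CPM in p21-high sums, 4.97 and 3.10 in p21-low sums and 0.262 and 0.226 in controls. Acinar markers summed to 121 and 216 CPM in the controls, above the 30.5 and 73.1 of the p21-high sums.

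The p21-low sums of the mutants were set against the same control sums, so this comparison shares its controls with the one before. The p21-low sums were unlike in Atf4 RNA, at 0 CPM in mutant 1 and 193.5 in mutant 2, so they were not like replicates. Atf4 itself was not called (log2 difference -1.88, SE 0.94). Of 12364 genes tested 3 were higher (0.0243%) and 2 lower (0.0162%) by edgeR, 0.0404% in either direction. DESeq2 called 27 and 18, and an unadjusted p under 0.05 was reached by 735 and 525. The 5 genes were Cacna1i, A330008L17Rik and Pde10a, which rose, and Nnat and Amy2a5, which fell. Pde10a, a phosphodiesterase, stood at 227 and 226 CPM in p21-low sums, 262 and 198 in p21-high sums and 79.4 and 66.8 in controls, and A330008L17Rik at 98.1 and 83.8, 109 and 93.1, and 11.5 and 16.4. These genes therefore separated mutant from control barcodes at like levels in both classes. Of 44 tested p53 targets 0 were called by edgeR, 2 by DESeq2 and 0 by limma-voom, the median was 0.20, and 10 higher and 5 lower reached an unadjusted p under 0.05. With mutant barcodes limited to those with no Atf4 UMI, edgeR called 15 genes higher and 26 lower, with 3 p53 targets higher. In the fit of all p21-low barcodes, Ccng1 differed by 1.51 and Phlda3 by 2.56 without passing. Without control 1 the counts were 85 higher and 64 lower, without control 2 59 and 35, without mutant 1 5 and 3, and without mutant 2 11 and 8.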

How the data were processed

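RNA of dissociated mouse islet cells was counted in 4 pools. Per the labels' protocols, cells were encapsulated by inDrops and sequenced, and per the submitters' processing notes the genome build was mm10 and Seurat was used. The aligner, the counter, the strand setting and the Seurat version are not given in the sources used here. The deposited matrices hold whole-number UMI counts per gene symbol and barcode, made by the authors and used as deposited. Their highest values, 4078 to 4093, lie near 4096, the number of sequences a 6-base UMI would have (the UMI length is not given in the sources used here), so the most abundant genes, the insulins among them, may be undercounted.

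Beta barcodes and Cdkn1a classes were set by the rule in the report over 21594 gene symbols. UMIs were summed per pool and class and fitted with edgeR 4.0.16 (R 4.3.3): filterByExpr, TMM, glmQLFit and glmQLFTest, Benjamini-Hochberg over all genes tested, threshold 0.05. The comparison of classes used 6 sums with the pool as a block, 2 residual degrees of freedom and a prior of 22.2. Comparisons with controls used 4 sums and no block. Genes of the rule were kept out of the adjustment. The classes of a pool come from the same mice and library. Nothing in the labels says which mice entered which pool. Sums of replicate pools differed by more than counting error, with chi-square values of 2.96 to 9.6 for each degree of freedom, which does not show whether they came from separate cell suspensions.

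Alternatives were DESeq2 1.42.0, limma-voom (limma 3.58.1), other scalings, no filter, other limits, thinning to 8000 UMIs and leaving out pools. The fits were tested on simulated data with 200 changed genes. For p21-high against p21-low, 14 of 214 calls were false. Against controls, 10 of 208 were false for p21-high and 21 of 215 for p21-low. The simulated pools differed by random spread only, so the unlike Atf4 RNA of the p21-low classes was not part of it. The members and the 28 gene lists were chosen with earlier results of these data known. Named genes were the 12 largest rises and falls among called genes of average log2 CPM of at least 5 with the same direction in both pools, then up to 4 called members of each list with the lowest p, all called p53 targets, the genes of the rule, Atf4, Cacna1i, Trp53 and Mdm2; others were picked after their values had been seen.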

Additional observations from a re-analysis of the deposited data

How the results depend on the processing

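In the comparison of p21-high with p21-low barcodes (67 genes higher, 42 lower, 17 p53 targets higher), the counts were 166 higher with library totals, 105 and 80 with no filter on low counts, 17, 1 and 6 with DESeq2, 8, 0 and 4 with no replicate block, 21, 6 and 10 with the high and low sums only, and 33, 17 and 10 after thinning to 8000 UMIs. They were 37, 11 and 10 in barcodes with no Atf4 UMI, 14, 1 and 6 in Xist barcodes and 26, 14 and 7 in Y-linked barcodes. With no replicate block edgeR called 0 lower genes, with 293 lower at an unadjusted p under 0.05. Against controls (120, 94 and 22) library totals gave 264 higher and no filter 356 and 432, and leaving out a pool gave 36 to 84, 18 to 69 and 10 to 16. The replicate block gave 137 and 113 there; the replicate numbers of mutants and controls are only a number, since same-numbered sums deviated with a correlation of -0.081 (p21-high) and -0.044 (p21-low) over 8435 genes. For p21-low against controls (3, 2 and 0) library totals gave 4 lower, no filter 159, 133 and 3, DESeq2 27, 18 and 2, the replicate block 78, 57 and 2, mutant barcodes with no Atf4 UMI 15, 26 and 3, and leaving out a pool 5 to 85, 3 to 64 and 0 to 2. The cause of these shifts was not tested. The share of p21-high barcodes was 53% in mutant 1 after thinning and 40.1% in mutant 2 without Atf4 UMIs.

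Ccng1, Phlda3, Zmat3, Bax, Pdyn and 1700120G11Rik were called in 18 of 18 tested alternatives. Of the values of single genes between the classes 927 kept direction and, where tested, the call, 281 lost the call and 21 changed sign. The 927 include values with no adjusted p, such as those of single pools, for which only the direction was compared. Trp53, never called, changed sign to 0.082 with library totals, 0.054 with a limit of 300, 0.024 with insulin of at least 25%, 0.192 after thinning, 0.005 without Atf4 UMIs, 0.152 in Y-linked barcodes and 0.135 in mutant 2 without Atf4 UMIs. In Xist barcodes Atf5 was 0.197, Mthfd2 0.116, Dusp1 -0.079 and Fosb -0.064, and Kat2b was 0.038 in Y-linked barcodes. Npy was 0.23 after thinning. Mutant 1 alone gave Atf5 0.758 and Mthfd2 0.02, and mutant 2 alone -2.207 and -1.697. Barcodes with no Atf4 UMI in each pool alone were added after seeing the data: mutant 1 gave Atf5 0.767 and Mthfd2 0.048, and mutant 2 gave Npy 0.62, Rpl22l1 0.18, Cacna1i -0.052 and Fosb -0.23. A single pool gives no test. Depth limited rare genes: p21-low barcodes of mutant 1 summed to 1430391 UMIs, and 10 of 54 listed p53 targets were below the filter.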
